A study of Mus musculus with 6 samples.

Results

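RANKL, the receptors it acts on and the genes that mark the bone-resorbing osteoclast were followed as a set of 10 genes, chosen by symbol out of the 24346 gene symbols of the files. They are Tnfsf11 (RANKL), Tnfrsf11a (RANK), Tnfrsf11b (osteoprotegerin), Csf1, Csf1r, Acp5, Ctsk, Oscar, Nfatc1 and Itgb3. All 10 were in the files, and all 10 passed the filter of a mean of at least 1 FPKM (sequenced fragments divided by transcript length and by library size). The RNA came from the nasomaxillary complex (bone, cartilage, skin, muscle and nasal lining of the upper jaw and nose) of mouse embryos at E17.5. The 3 control libraries were from Pth1r f/f embryos, which carry floxed copies of the parathyroid hormone receptor gene and no Cre. The 3 mutant libraries were from Wnt1-Cre:Pth1r f/f embryos, in which the Wnt1 promoter drives Cre in the neural crest lineage, and no embryo was treated. Because the controls lack Cre, what Cre itself does and what loss of the receptor does cannot be told apart. Values of single libraries are given in the order of replicates 1 to 3.

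Osteoclasts are multinucleated cells of the blood-forming lineage, not of the neural crest. They form when precursors that carry CSF1R and RANK meet CSF1 and RANKL made by osteoblasts, osteocytes, hypertrophic chondrocytes and stromal cells. Osteoprotegerin is a secreted decoy that binds RANKL and keeps it from RANK. In bone cells, parathyroid hormone signalling through PTH1R is known to raise RANKL and to lower osteoprotegerin, so the comparison asks whether this axis differs between the genotypes.

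By limma, none of the 10 genes differed between the genotypes at the threshold of 0.05 on the p adjusted over 14766 tested genes, and 0 of the 10 had an unadjusted p under 0.05. Of all tested genes 0.264% passed that threshold, 0.061% as higher and 0.203% as lower in mutant, and 11.3% had an unadjusted p under 0.05, so a count of 0 among 10 sits near those shares. The mutant and control values overlapped in all 10 genes, while 17% of the tested genes had groups that did not overlap. The smallest adjusted p of the 10 was 0.515, for Tnfrsf11b. The log2 change, mutant minus control on the log2(FPKM + 1) scale, was positive for 7 and negative for 3, with a median of 0.031, beside -0.0020 over all tested genes. The 95% intervals of these log2 changes reached from -0.49 (Ctsk) to 0.53 (Oscar). A p that misses the threshold does not show that the levels were equal.

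**Figure D1:**
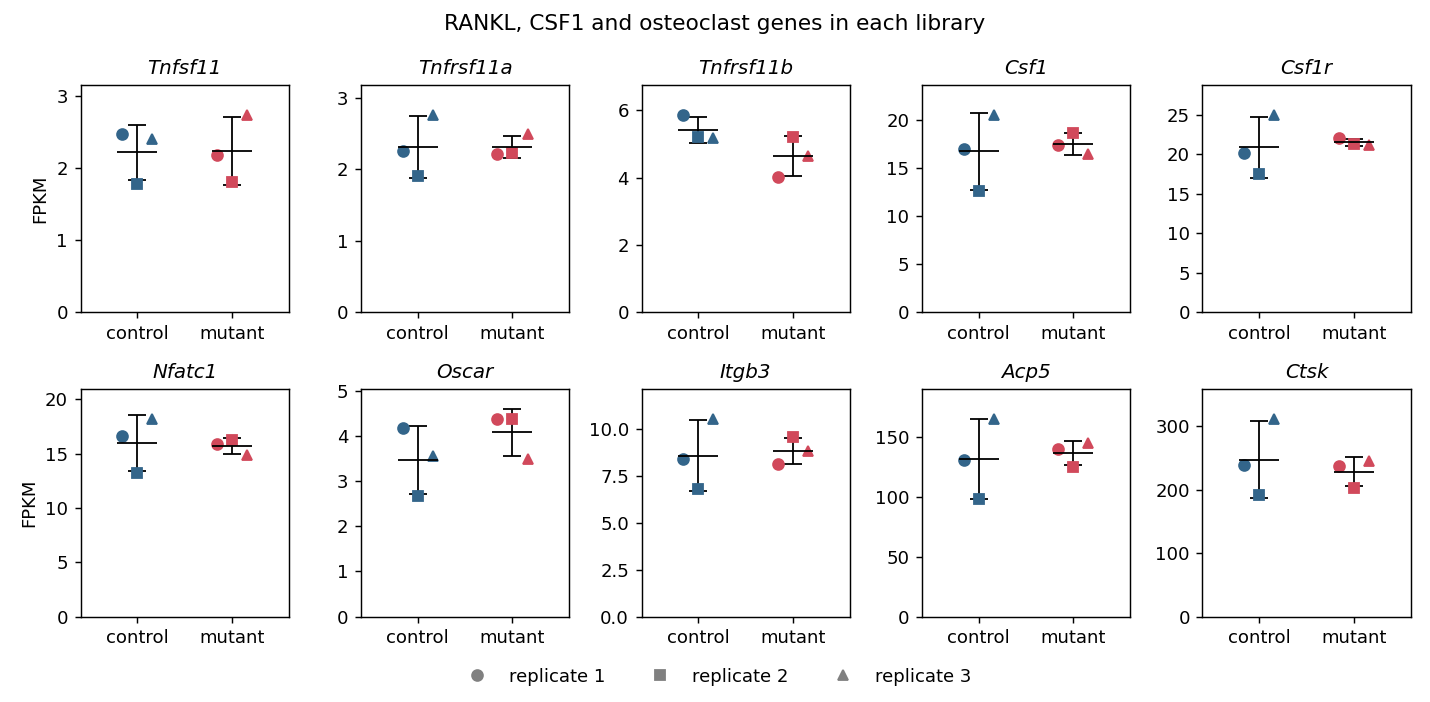
FPKM of the 10 genes in each library, 1 panel a gene, with control in blue, mutant in red and a marker shape for each replicate; black bars are the mean and SD of 3 libraries. The groups overlap in every panel, and control replicate 2 is the lowest library in 9 of the 10.

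**Figure D2:**
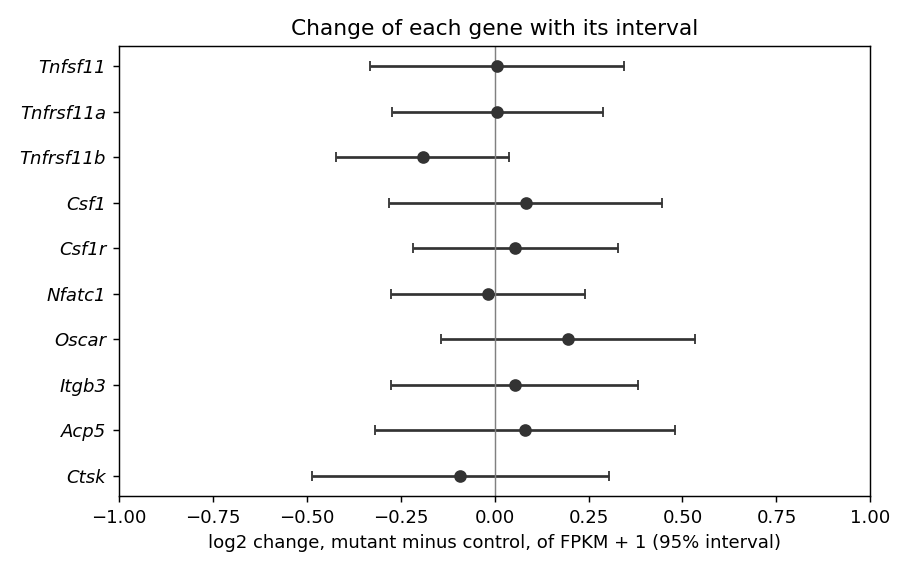
Log2 change of each gene (mutant minus control, FPKM + 1 scale; points) with the 95% interval from limma (bars). All 10 intervals include 0.

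The targeted gene does not check the labels, since they do not say which part of it is floxed. The share of neural crest tissue in the libraries was not measured. Pth1r measured 75.2, 55.2 and 73.5 FPKM in the controls and 77.3, 78.4 and 69.7 FPKM in the mutants. The spacing of low FPKM values gave an estimated depth of 8850000 to 14600000 fragments per library, mutant replicate 3 being the shallowest. Xist and 4 Y-linked genes read as female in 3 controls and 1 mutant and as male in the other 2 mutants. Nothing in the labels ties a library to its own embryo or litter, so the p-values rest on the spread of these samples alone, which may be technical.

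RANKL, the ligand encoded by Tnfsf11 (chromosome 14, 78277445 to 78308043, minus strand, GRCm38), was among the scarcer transcripts, at the 10.1th percentile of the tested genes by mean FPKM. It measured 2.46, 1.78 and 2.40 FPKM in the controls and 2.17, 1.81 and 2.74 FPKM in the mutants. The lowest values of the 2 groups were nearly the same, and the highest came from mutant replicate 3. The means were 2.22 ± 0.377 FPKM in the controls and 2.24 ± 0.470 FPKM in the mutants (SD, n = 3 each). Its difference on the log2 scale was 0.0070 ± 0.14 (SE; limma adjusted p = 0.993), with a 95% interval of -0.33 to 0.34. Over its 2236-base transcript these levels stand for an estimated 48 to 72 fragments per library, so counting alone gives an error of 11.8% to 14.5%, against a spread between libraries of 17.0% of the mean in control and 21.0% in mutant.

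Osteoprotegerin, the decoy receptor encoded by Tnfrsf11b (chromosome 15, 54250619 to 54278484, minus strand), had the smallest p of the 10. Its values were 5.87, 5.22 and 5.17 FPKM in the controls and 4.03, 5.22 and 4.65 FPKM in the mutants. Mutant replicates 1 and 3 lay below every control, and mutant replicate 2 lay between control replicates 3 and 2. The mean was 5.42 ± 0.392 FPKM in the controls and 4.63 ± 0.594 FPKM in the mutants (SD, n = 3 each), a log2 change of -0.19 ± 0.098 (SE) that limma did not call (adjusted p = 0.515, interval -0.42 to 0.038). Its estimated fragments ran from 116 to 217 per library. It was the gene of the 10 that departed most from the order of libraries shared by most of the others, being lowest in mutant replicate 1 and highest in control replicate 1.

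The ratio of RANKL to osteoprotegerin, often read as the balance between osteoclast formation and its restraint, was 0.420, 0.342 and 0.465 in control replicates 1 to 3. In mutant replicates 1 to 3 it was 0.539, 0.346 and 0.589. Mutant replicates 1 and 3 lay above all controls and mutant replicate 2 lay beside the lowest control, so the groups overlapped. The mean log2 ratio of plain FPKM was 0.24 higher in mutant, and that of FPKM + 1, the scale of the changes above, 0.20 higher. Leaving out each library in turn gave 0.091 to 0.47 for plain FPKM. The value was 0.091 without mutant replicate 3, 0.12 without control replicate 2, 0.15 without mutant replicate 1 and 0.47 without mutant replicate 2. No test was made of this ratio, because its genes were chosen with results of these data known.

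RANK, the receptor encoded by Tnfrsf11a (chromosome 1, 105780718 to 105847981, plus strand), measured 2.26, 1.91 and 2.77 FPKM in the controls and 2.21, 2.23 and 2.497 FPKM in the mutants. The mutant values all lay within the control range. Its mean was 2.31 FPKM in each group, with an SD of 0.432 in control and 0.160 in mutant, and the log2 change was 0.0078 ± 0.12 (SE; limma adjusted p = 0.990, interval -0.27 to 0.29). RANK and RANKL thus stood at near-equal FPKM, with a ratio of RANKL to RANK of 0.869 to 1.09 over the controls and 0.810 to 1.10 over the mutants. Osteoprotegerin exceeded both in every library.

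CSF1, the growth factor that keeps macrophages and osteoclast precursors alive, and its receptor CSF1R were about as abundant as each other. Csf1 measured 17.0, 12.6 and 20.6 FPKM in the controls and 17.4, 18.7 and 16.4 FPKM in the mutants. Its mutant values lay inside the control range, and its log2 change was 0.083 ± 0.15 (SE; limma adjusted p = 0.891). Csf1r measured 20.1, 17.4 and 25.002 FPKM in the controls and 22.04, 21.2 and 21.2 FPKM in the mutants. The 3 mutant libraries agreed within 2.26% of their mean (SD), the controls within 18.4%, and the log2 change was 0.056 ± 0.12 (SE; limma adjusted p = 0.903). The ratio of Csf1 to Csf1r was 0.725 to 0.849 in control and 0.777 to 0.881 in mutant. Exons of Csf1r overlap those of Hmgxb3 on the opposite strand (12.7 to 14.4 FPKM), and exons of Acp5 overlap those of 6530413G14Rik, which was not analysed here; the strand setting of the counting is not given in the sources used here, so reads of these pairs cannot be told apart.

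Csf1r is also the receptor of every tissue macrophage, so markers of macrophages and monocytes are given beside it. None of 14 such genes was called by limma, 1 had an unadjusted p under 0.05 and 2 had groups that did not overlap. Over all tested genes these shares were 0.264%, 11.3% and 17%. Positive changes were found for 13 of the 14, beside 49.2% of all tested genes, with a median log2 change of 0.12. Their summed level was 183 to 189 FPKM in the controls and 193 to 222 FPKM in the mutants, and none of them was at 0. Cd68, a lysosomal protein of macrophages that osteoclasts also make, measured 26.1, 23.1 and 36.1 FPKM in the controls and 28.3, 29.8 and 30.5 FPKM in the mutants. Lyz2, the lysozyme of macrophages and granulocytes, averaged 56.2 ± 6.31 FPKM in the controls and 63.3 ± 10.7 FPKM in the mutants (SD, n = 3 each). In bulk tissue, fewer cells of a type and less RNA per cell cannot be told apart, and the part of macrophages in the Csf1r values was not tested.

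Ctsk and Acp5, the enzymes of resorption, were the most abundant of the 10 genes. Ctsk encodes cathepsin K, the protease that breaks down bone collagen (chromosome 3, 95499256 to 95509362, plus strand), and stood at the 98.3th percentile of the tested genes. It measured 238, 192 and 312 FPKM in the controls and 237, 202 and 245.5 FPKM in the mutants. The mutant values again fell inside the control range, with means of 247 ± 60.7 FPKM in the controls and 228 ± 22.8 FPKM in the mutants (SD, n = 3 each). Its change of -0.091 ± 0.17 (SE) on the log2 scale was not called (limma adjusted p = 0.890) and had an interval of -0.49 to 0.30. With an estimated 3285 to 5780 fragments per library its counting error was 1.32% to 1.74%, far under the 24.5% spread of the controls.

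Acp5 encodes tartrate-resistant acid phosphatase, the enzyme stained to find osteoclasts (chromosome 9, 22126727 to 22135711, minus strand). It measured 131, 98.8 and 166 FPKM in the controls and 140, 126 and 145 FPKM in the mutants. The means were 132 ± 33.4 FPKM in the controls and 137 ± 10.02 FPKM in the mutants (SD, n = 3 each). Its log2 change of 0.081 ± 0.17 (SE) was not called (limma adjusted p = 0.902, interval -0.32 to 0.48). Acp5 and Ctsk put the libraries in nearly the same order, with control replicate 3 highest and control replicate 2 lowest.

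Nfatc1, the transcription factor that RANK switches on to commit a precursor to the osteoclast fate, measured 16.6, 13.2 and 18.2 FPKM in the controls and 15.9, 16.3 and 14.9 FPKM in the mutants. Its log2 change was -0.017 ± 0.11 (SE; limma adjusted p = 0.973, interval -0.28 to 0.24). Oscar, a costimulatory receptor of the osteoclast that binds collagen, measured 4.17, 2.67 and 3.57 FPKM in the controls and 4.38, 4.38 and 3.48 FPKM in the mutants. Mutant replicates 1 and 2 exceeded every control, whereas mutant replicate 3 lay among them. The log2 change of Oscar was 0.19 ± 0.14 (SE; limma adjusted p = 0.670, interval -0.14 to 0.53), and was 0.059 without control replicate 2 and 0.31 without control replicate 1. Itgb3, the integrin subunit with which osteoclasts grip bone, measured 8.39, 6.80 and 10.6 FPKM in the controls and 8.14, 9.56 and 8.82 FPKM in the mutants. Its log2 change was 0.054 ± 0.14 (SE; limma adjusted p = 0.924).

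Itgb3 is shared with platelets and endothelium, and Nfatc1 with endothelium. Of 6 platelet and megakaryocyte genes 3 were tested and none was called, and Pf4, a platelet chemokine, averaged 17.3 ± 3.35 FPKM in the controls and 19.6 ± 5.21 FPKM in the mutants (SD, n = 3 each). Itga2b, the integrin partner of Itgb3 in platelets, averaged 4.72 and 4.63 FPKM. The summed level of the platelet list was 26.0 to 32.0 FPKM in the controls and 25.8 to 34.4 FPKM in the mutants. All 6 endothelial genes had positive changes, beside 49.2% of all tested genes, and none was called. Of the 6, 2 had an unadjusted p under 0.05 and 3 (Tek, Tie1 and Emcn, named after their values were seen) had groups that did not overlap, beside 11.3% and 17% of all tested genes. Their sum was 128 to 144 FPKM in the controls and 139 to 162 FPKM in the mutants. Pecam1 and Cdh5, both junction proteins of endothelium, averaged 31.3 and 39.0 FPKM in the controls and 33.2 and 40.0 FPKM in the mutants. The part of these cells in the Itgb3 and Nfatc1 values was not tested.

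The most regular feature of the 10 genes was an order of libraries that did not follow genotype. Control replicate 2 was the lowest of the 6 libraries for 9 of the 10, and control replicate 3 the highest for 7. For 7 of them, namely Tnfrsf11a, Csf1, Csf1r, Nfatc1, Itgb3, Acp5 and Ctsk, both held at once, which was true of 2.61% of all tested genes. The spread between controls was therefore wide: the median coefficient of variation of the 10 genes was 20.3% in control and 7.68% in mutant, beside 6.39% and 7.27% over all tested genes. A wider control spread was not particular to the 10 genes. The medians were 19.7% and 13.1% for 14 osteoblast, osteocyte and hypertrophic chondrocyte genes and 11.6% and 8.64% for 16 resorption genes. For 6 surface epithelium genes they were 24.9% and 4.75%. Other lists went the other way, with 10.2% and 12.0% for macrophages and 23.1% and 44.5% for skeletal muscle. The order of libraries was noticed after the values were seen and is given as a description.

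**Figure D3:**
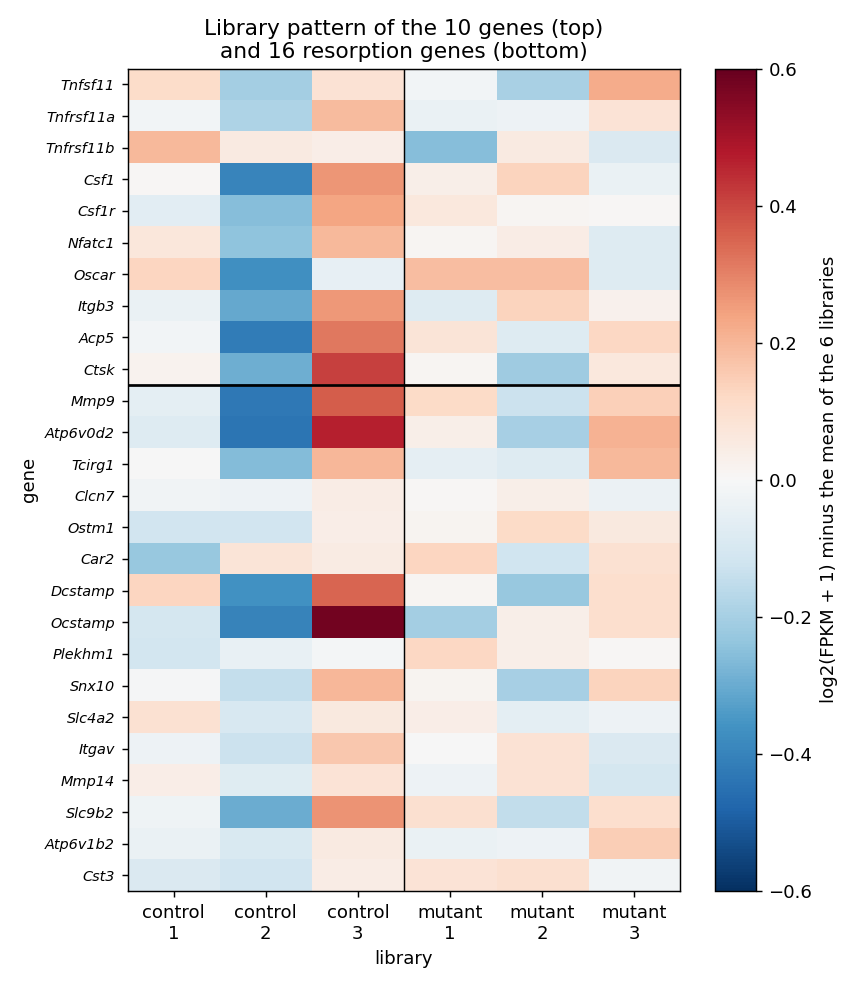
Level of each gene in each library as log2(FPKM + 1) minus the mean of the 6 libraries, with red above and blue below that mean; the 10 genes are above the line and 16 tested resorption genes below it. Control replicate 2 is the lowest library for 9 of the 10 upper genes and 11 of the 16 lower ones, and control replicate 3 the highest for 7 and 9.

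Some other genes of bone resorption carried the same order. In a list of 18 genes for fusion, acid secretion and matrix breakdown, 16 were tested. By limma 0 were called in either direction and 0 had an unadjusted p under 0.05, beside 0.264% and 11.3% of all tested genes. Positive changes numbered 10, beside 49.2% of all tested genes, and the median was 0.034. Control replicate 2 was lowest for 11 of the 16 and control replicate 3 highest for 9, both at once for 7. The tested genes with the smallest p were Plekhm1, a lysosomal adaptor whose loss causes osteopetrosis (10.2 ± 0.373 FPKM in control, 11.05 ± 0.521 in mutant), Ostm1, the partner of the chloride transporter of the resorption surface (7.20 ± 0.524 and 7.95 ± 0.312), and Cst3, the protease inhibitor cystatin C (230 ± 13.7 and 247 ± 11.2; SD, n = 3 each). Their limma adjusted p were 0.538, 0.547 and 0.566. Calcr, the calcitonin receptor, and Siglec15 were below the filter, at 0.407 to 1.03 and 0.172 to 0.842 FPKM over the 6 libraries.

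The tested genes outside the set whose centred log2 values lay closest to those of Acp5 over the 6 libraries were Mmp9, the gelatinase of osteoclasts, Slc37a2, a sugar phosphate transporter gene, and Slc9b2, a sodium proton exchanger gene. Their root mean square differences from Acp5 were 0.037, 0.044 and 0.062, where Acp5 itself varied by 0.226 about its own mean. Mmp9 measured 114, 87.8 and 152.5 FPKM in the controls and 128, 108 and 131 FPKM in the mutants. Closest to Ctsk were Podnl1 (0.024), Ccdc18 (0.049) and Dcstamp (0.060), the last encoding the fusion protein of osteoclast precursors. Dcstamp measured 4.16, 2.67 and 5.005 FPKM in the controls and 3.75, 3.04 and 4.05 FPKM in the mutants. Closest to Tnfsf11 were Asic3 (0.033), 9230110C19Rik (0.037) and Sat2 (0.040), with no osteoclast gene among them. With 6 libraries and 14766 genes some close matches arise in any case, and these are descriptions.

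Of 14 osteoblast, osteocyte and hypertrophic chondrocyte genes, control replicate 2 was lowest for 6 and mutant replicate 2 for 7, control replicate 3 was highest for 6, and 1 (7.14%) had control replicate 2 lowest and control replicate 3 highest at once. That gene is Sp7, taken here as the osteoblast reference after its values were seen. Among the controls alone the 14 genes and the 10 genes were alike. Relative to the control mean, the mean log2(FPKM + 1) of the 14 was 0.061, -0.324 and 0.263 in control replicates 1 to 3. For the 10 genes it was 0.049, -0.253 and 0.204. In mutant replicates 1 to 3 the sets differed, at 0.339, 0.099 and 0.412 for the 14 and 0.008, 0.013 and 0.034 for the 10. The mean of the 14 includes Col10a1, which changed by 4.84, while their median change was -0.15. Sp7, the transcription factor that defines osteoblasts, measured 81.4, 59.2 and 82.8 FPKM in the controls and 70.5, 59.5 and 66.4 FPKM in the mutants, so that control replicate 2 and mutant replicate 2 were lowest. Divided by Sp7, Ctsk stood at 2.93, 3.24 and 3.76 in control replicates 1 to 3 and at 3.36, 3.40 and 3.70 in mutant replicates 1 to 3. Acp5 over Sp7 was 1.61, 1.67 and 1.998 in control and 1.98, 2.11 and 2.18 in mutant, with mutant replicate 1 just under control replicate 3. These ratios were chosen after the values were seen, and they too overlapped between the groups. Sp7 has the same order of controls as Ctsk and Acp5, so dividing by it narrows their control spread by construction. Whether Ctsk and Acp5 follow the share of osteoblasts was not tested. Genes of skin and muscle stood higher in the mutant libraries as sums: the summed level of 6 surface epithelium genes was 534 to 1030.4 FPKM in the controls and 1235 to 1292 FPKM in the mutants, and that of 6 skeletal muscle genes 157 to 212 FPKM and 239.5 to 570 FPKM. Changes were positive for 5 of the 6 epithelium and 6 of the 6 muscle genes, beside 49.2% of all tested genes. Krt5 and Krt1, keratins of the skin, averaged 172 ± 54.0 and 248 ± 149 FPKM in the controls. In the mutants they averaged 285 ± 10.1 and 512 ± 30.4 FPKM (SD, n = 3 each). Epcam of the same list, named after its values were seen, went the other way, from 95.5 ± 8.58 to 88.2 ± 12.0 FPKM. Tnni1 and Actc1, genes of the sarcomere, averaged 28.4 ± 2.98 and 118 ± 22.4 FPKM in the controls. In the mutants they averaged 58.7 ± 23.6 and 250.1 ± 124 FPKM (SD, n = 3 each). Mutant replicate 2 was the highest library for both, at 85.6 and 391 FPKM. None of these 12 genes was called (0.264% of all tested genes were). In each list 5 of 6 had an unadjusted p under 0.05, and the groups did not overlap for 5 of the epithelium and 4 of the muscle genes, beside 11.3% and 17% of all tested genes. Their part in the levels of the 10 genes was not tested.

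For the effector genes the sequence before the start of transcription is shown, because Acp5, Ctsk and Oscar are known targets of the osteoclast transcription factors NFATc1, PU.1 and MITF. RefSeq windows (GRCm38.p6) were at hand for 6 of the 10 genes, and Acp5 has 3 annotated starts, of which the most downstream is printed. Each line gives the 250 bases before the start, 5′ to 3′ on the gene's strand, with matches on either strand in capitals. The motifs searched were CATGTG (an E-box that MITF can bind, read as CACATG on the other strand), GAGGAA (PU.1 core), GGAAA (NFAT core) and TGANTCA (AP-1).
Ctsk (chr3:95498960-95499209, plus strand): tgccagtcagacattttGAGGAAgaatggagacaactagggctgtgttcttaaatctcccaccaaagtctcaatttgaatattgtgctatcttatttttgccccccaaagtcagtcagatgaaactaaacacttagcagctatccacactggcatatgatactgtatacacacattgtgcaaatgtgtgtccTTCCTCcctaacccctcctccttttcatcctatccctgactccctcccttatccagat
Acp5 (chr9:22130599-22130848, minus strand): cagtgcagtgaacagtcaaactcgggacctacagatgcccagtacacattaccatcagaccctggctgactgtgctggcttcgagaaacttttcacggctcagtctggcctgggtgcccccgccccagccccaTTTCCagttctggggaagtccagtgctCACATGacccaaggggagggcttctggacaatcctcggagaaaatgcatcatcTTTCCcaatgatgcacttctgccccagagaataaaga
Oscar (chr7:3616158-3616407, minus strand): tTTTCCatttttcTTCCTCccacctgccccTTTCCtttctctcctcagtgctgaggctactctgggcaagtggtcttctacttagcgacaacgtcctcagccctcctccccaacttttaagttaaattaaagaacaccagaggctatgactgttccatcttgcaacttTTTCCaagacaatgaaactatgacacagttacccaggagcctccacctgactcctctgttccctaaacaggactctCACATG
The printed Acp5 window held 1 E-box, beginning 90 bases before the start, and 2 NFAT cores, and the windows of its other 2 starts held no E-box and 1 NFAT core each. The Oscar window held 1 E-box directly before the start, 1 PU.1 core and 3 NFAT cores. The Ctsk window held 2 PU.1 cores and no E-box or NFAT core. None of the 3 held the AP-1 letters. Among 32851 RefSeq windows of the same length, 12.3% held the E-box, 23.3% the PU.1 core, 55.6% the NFAT core and 6.75% the AP-1 letters, so the NFAT core in particular is common. A match describes the letters and is not a measured site.

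Downstream of RANK, 24 adaptors, kinases and transcription factors were followed, of which 23 were tested. None was called by limma in either direction (0.264% of all tested genes were). Positive changes numbered 17, beside 49.2% of all tested genes, with a median of 0.072. An unadjusted p under 0.05 was found for 3, beside 11.3% of all tested genes. Those 3 also had groups that did not overlap, beside 17% of all tested genes. Vav3, an exchange factor that osteoclasts need to spread on bone, measured 7.42, 7.72 and 6.77 FPKM in the controls and 9.52, 9.29 and 9.81 FPKM in the mutants. All 3 mutants lay above all controls, by a log2 change of 0.35 ± 0.066 (SE) with a limma adjusted p of 0.136. Fos, the AP-1 subunit without which no osteoclast forms, averaged 8.64 ± 0.887 FPKM in the controls and 11.2 ± 1.25 FPKM in the mutants (SD, n = 3 each; limma adjusted p = 0.292). Fcer1g, the signalling chain that partners with OSCAR, averaged 22.3 ± 2.08 and 29.0 ± 3.83 FPKM (adjusted p = 0.292). Spi1, which encodes PU.1, and Mitf, both named after their values were seen, averaged 9.14 and 2.097 FPKM in the controls and 8.21 and 2.35 FPKM in the mutants.

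Of 21 signals and regulators that act on RANKL, osteoprotegerin or osteoclast precursors, 14 were tested and none was called. Of the 14, 4 had an unadjusted p under 0.05 and 5 had groups that did not overlap, beside 11.3% and 17% of all tested genes. Positive changes numbered 10, beside 49.2% of all tested genes, with a median of 0.14. Vdr, the vitamin D receptor, through which vitamin D induces RANKL in osteoblasts, measured 14.5, 10.6 and 14.1 FPKM in the controls and 20.1, 18.5 and 19.8 FPKM in the mutants. Every mutant library lay above every control, with a log2 change of 0.55 ± 0.11 (SE), an interval of 0.29 to 0.81 and a limma adjusted p of 0.160. Lgr4, a receptor that can also bind RANKL, averaged 18.4 ± 0.346 FPKM in the controls and 22.4 ± 1.67 FPKM in the mutants (limma adjusted p = 0.221). Sema3a, a secreted restraint on osteoclast formation, averaged 10.02 ± 0.667 and 8.59 ± 0.718 FPKM (limma adjusted p = 0.406; SD, n = 3 each). Of lymphocytes, another source of RANKL, the B cell gene Cd79a was at 0.628 to 1.05 FPKM over the libraries, and the part of lymphocytes in the RANKL values was not tested.

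Genes of the cells that make RANKL included some that differed between the genotypes. In a list of 14 osteoblast, osteocyte and hypertrophic chondrocyte genes, some of whose changes were known from earlier results of these data, limma called 2 higher and 0 lower, beside 0.264% of all tested genes in either direction, with 5 positive and 9 negative changes and a median of -0.15. Of the 14, 8 had an unadjusted p under 0.05 and 7 had groups that did not overlap, beside 11.3% and 17% of all tested genes. Col10a1, the collagen of hypertrophic chondrocytes, had a mutant mean of 64.4 ± 11.5 FPKM against 1.26 ± 0.0371 FPKM in the controls (SD, n = 3 each) and rose by 4.84 on the log2 scale (limma adjusted p = 1.18e-05). Sost, which encodes the osteocyte product sclerostin, rose from 2.42 ± 0.262 to 8.19 ± 1.84 FPKM (limma adjusted p = 0.0228), a call that was lost without any one of control replicates 1, 2 and 3 and mutant replicates 1 and 3, while its log2 change stayed between 1.31 and 1.58 with each library left out. The call was also lost with no filter (limma adjusted p = 0.061). With sex as a covariate the log2 change was 1.56, but that fit sets mutant replicate 1, the only female mutant, alone against the controls. Mepe, a matrix protein gene of osteocytes, averaged 0.690 ± 0.300 and 1.76 ± 0.250 FPKM with a limma adjusted p of 0.191. Among the genes with negative changes, named after their values were seen, Bglap, the gene of osteocalcin, averaged 17.6 ± 9.26 FPKM in control libraries and 5.61 ± 1.74 FPKM in mutant ones, with no overlap (limma adjusted p = 0.233). Mmp13, a collagenase of hypertrophic cartilage and bone, likewise did not overlap, at 76.2 ± 35.5 and 37.7 ± 3.22 FPKM (limma adjusted p = 0.318; SD, n = 3 each). Spp1 and Col1a1, both bone matrix genes, had log2 changes of -0.57 and -0.32 and overlapped. Beside these, the log2 difference of RANKL was 0.0070.

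**Figure D4:**
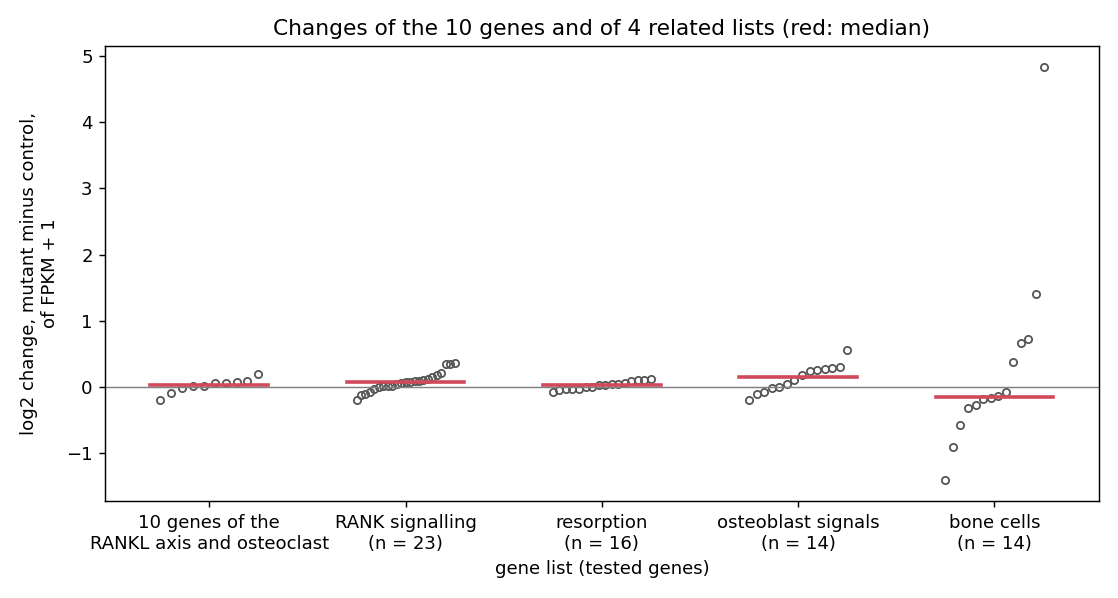
Log2 change (mutant minus control, FPKM + 1 scale) of the 10 genes and of the tested genes of 4 related lists; each circle is a gene and each red line a list median. The 10 genes and the resorption genes lie close to 0 (medians 0.031 and 0.034), and Col10a1 is the highest point of the bone cell list.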

How the data were processed

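The authors deposited one FPKM value per gene symbol and library, per the file headers. The submitters' processing notes name Cuffdiff 2.2.1, TopHat2 2.1.1 with Bowtie2 2.2.8, and SAMtools 0.1.18, on build mm10. Per the labels' protocols, RNA was extracted with TRIzol and made into stranded mRNA libraries. For annotation, filters and scaling between libraries, the processing is not given in the sources used here. A count test was not run on FPKM.

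Values were analysed as log2(FPKM + 1), which understates changes of low genes, for the 14766 genes that averaged 1 FPKM or more. Limma 3.58.1 (R 4.3.3; eBayes with trend, two-sided, no covariate, 4 residual degrees of freedom) compared the genotypes, and p-values were adjusted by Benjamini-Hochberg over every tested gene, with 0.05 as the threshold. The genes and lists were chosen with earlier results of these data known. From each pathway list the text names the called genes and otherwise the 3 of smallest p, and from each marker list the 2 of highest FPKM, of which 1 gene is not reported here. Depth was estimated from the FPKM that 1 fragment is worth in genes with a single GENCODE M21 transcript of over 2000 bases, between 84 and 109 such genes per library. Gene positions are GENCODE's for GRCm38, the coordinates of mm10. Intervals of fragments cover counting error only. On simulated data with 200 changed genes, in 5 draws of 14766 genes, 90.6% of the 2-fold changes of FPKM + 1 were called, and 4.3% of the calls were false. The changed genes were drawn from all tested genes, whose median control spread was 6.39%, beside 20.3% for the 10 genes. The recovered share therefore does not hold for the 10 genes. Alternatives were other pseudocounts (0.1, 0.5), filters, scalings, eBayes settings, library weights, sex as a covariate, an adjusted p under 0.1 and leaving out each library. All controls, and of the mutants only replicate 1, read as female. The fit with sex as a covariate therefore sets that 1 mutant library against the controls.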

Additional observations from a re-analysis of the deposited data

How the results depend on the processing

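No alternative called any of the 10 genes: over 17 other fits (16 for Tnfsf11, Tnfrsf11a and Oscar, which a mean of at least 5 FPKM leaves out) the smallest limma adjusted p was 0.311, for Tnfrsf11b with library weights. Tnfrsf11b stayed negative (-0.35 to -0.11) and Oscar positive (0.059 to 0.31) in every fit, and the other 8 genes changed sign in at least 1. Leaving out each library gave log2 changes of -0.10 to 0.11 for Tnfsf11, -0.082 to 0.10 for Tnfrsf11a, -0.095 to 0.24 for Csf1, -0.059 to 0.19 for Csf1r, -0.11 to 0.26 for Acp5, -0.26 to 0.090 for Ctsk, -0.14 to 0.077 for Nfatc1 and -0.085 to 0.20 for Itgb3. Without control replicate 2 the changes of Tnfsf11, Tnfrsf11a, Csf1, Csf1r, Acp5 and Itgb3 were negative, and without control replicate 3 those of Ctsk and Nfatc1 were positive. Without mutant replicate 3 the signs of Tnfsf11 (-0.10), Tnfrsf11a (-0.032) and Nfatc1 (0.0185) turned. Without control replicate 1 that of Nfatc1 turned (0.0139). Signs also turned with quantile normalization (Tnfsf11 -0.033, Tnfrsf11a -0.037), library weights (Tnfsf11 -0.015, Tnfrsf11a -0.028, Itgb3 -0.018) and sex as a covariate (Tnfsf11 -0.013, Tnfrsf11a -0.036, Itgb3 -0.050, Nfatc1 0.0014). The RANK signalling, resorption and osteoblast signals lists held 0 calls in every fit.

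Over all genes the 39 calls became 18 with no filter, 19 without trend, 71 with library weights, 80 at an adjusted p under 0.1, and 15 to 44 when each library was left out. The fit with sex as a covariate is not counted here, since it sets 1 mutant library against the controls. The bone cell list went from 2 calls to 1 with no filter, and to between 1 and 2 when each library was left out. Col10a1 stayed called in every fit counted. The cause of these shifts was not tested. No paired analysis was possible because the replicate numbers used here only follow the order of the samples, and nothing in the labels ties a control to a mutant library by litter or batch. With 3 libraries a group the standard errors of the 10 changes were 0.098 to 0.17, and for the RANKL gene an estimated 48 to 72 fragments per library limit the precision further.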
